A study of Drosophila melanogaster with 56 samples.

Results

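The first zygotic wave was described here as 80 genes, taken from the 17558 gene rows of the count tables. CPM, the count of a gene over the sum of all gene counts of its library on a common scale, was averaged over the 4 replicates of a time point. A gene was eligible when its highest mean of the 14 time points lay at 2 or 3 h and it reached 5 CPM at 2 h, which 1782 genes did. Each was given the ratio of its CPM at 2 h to the higher of its CPM at 0 and 1 h, with 0.5 added to both, and the 80 genes with the largest ratios were kept, so that they were chosen by measured values of these same libraries. The ratios ran from 22.3 to 1.6 with a median of 10.2. They were at least 10 in 41 genes, at least 5 in 59 and at least 2 in 70. The last genes inside were *Usp39*, *CtsF* and *CG3457* at 1.61, 1.6 and 1.6, and the first outside were *SF1*, *Srp54* and *BI-1* at 1.6, 1.58 and 1.58. The members were thus selected on their levels at 0, 1 and 2 h and on the time of their highest level. Values at 0 to 3 h are a description, and nothing is read from counts that involve these times.

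A fly embryo starts on mRNA and protein that the mother placed in the egg, while its nuclei divide rapidly in a common cytoplasm and its own genome is nearly silent. A small set of genes is transcribed during these division cycles, ahead of the general activation of the genome. Many of them are known for short or intronless transcripts, for marking out the body axes, for slowing the nuclear cycles and for cellularization, the growth of membranes between the nuclei of the blastoderm.

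Whole embryos of the wild-type strain Oregon R were laid over 30 min at 25 °C and were frozen at once (0 h) or first aged at that temperature. The 14 ages ran in steps of 1 h up to 6 h and in steps of 2 h from there to 20 h. All groups share this genotype and differ in age alone, with no treatment, and polyadenylated RNA was sequenced in 4 biological replicates per age, which gave 56 libraries. RNA came from whole embryos, so that fewer cells of a type and less RNA per cell cannot be told apart.

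The libraries held 13422473 to 22536043 gene counts, and 3 counts, taken as the floor of detection, stood for 0.133 to 0.224 CPM. Libraries of a time point did not always lie together. At 3 h, libraries 3 and 4 stood apart from libraries 1 and 2: over the 9266 genes that reached 5 CPM at some time point, their mean Spearman correlation with the 4 h libraries was 0.991 and 0.988, and with the 2 h libraries 0.825 and 0.808. Library 1 correlated with the 2 h libraries at 0.895 and with the 4 h libraries at 0.974, and library 2 at 0.928 and 0.947. All 4 libraries of 3 h were thus closer to the 4 h than to the 2 h libraries. With the 5 h libraries the means were 0.943 and 0.912 in libraries 1 and 2, and 0.986 and 0.989 in libraries 3 and 4. At 0 h, library 4 held 105.9 summed CPM of 13 late embryo genes (muscle and cuticle markers), while libraries 1 to 3 held 1292.3 to 1457.3. Over the same genes the 1 h libraries held 181.9 to 354.6, the 2 h libraries 482.6 to 953.4 and the 3 h libraries 193.5 to 252.7. The part of this mRNA in the 2 h levels was not tested. Where leaving out 3 h libraries 3 and 4 moved a value, it is given without them as well.

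The label suited the upper ranks better than the lower ones, a difference that sorting by the ratio itself favours. The 20 genes with the largest ratios had 1.93 to 31.3 CPM at 0 and 1 h and 40.4 to 541.7 CPM at 2 h. Ranks 61 to 80 had medians of 58 and 58.8 CPM at 0 and 1 h and of 113.4 CPM at 2 h. The higher of the 2 early levels was under 10 CPM in 3 of these 20 genes, *vnd*, *lov* and *egr*, and in 14 of ranks 1 to 20. *kuk*, whose protein lies at the nuclear lamina, had 664.0 CPM at 0 h and 790.9 CPM at 1 h, and *wech* had 1023.4 and 1088.7 CPM. Over all 80 genes, the higher of the levels at 0 and 1 h was at least 10 CPM in 40, at least 50 CPM in 15 and at least 100 CPM in 9. In the other 17 genes of ranks 61 to 80, that level was at least 20 CPM, so that the data went against a start from near 0, and the members are called here by their rank.

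The summed level of ranks 1 to 20 gives the values of single libraries behind these ratios. At 0 h the libraries held 242.3, 211.0, 240.8 and 55.05 summed CPM, and at 1 h they held 26.24, 256.5, 86.33 and 195.2. At 2 h the sums were 3093.4, 3164.1, 4078.9 and 3105.6 CPM. Every 2 h library lay above every younger library, as the choice of genes by this ratio brings about. The 0 h library that was low in late embryo genes was also the lowest here; the part of that library in the 0 h levels was not tested. At 4 h the sums were 219.5, 299.0, 269.3 and 217.2 CPM, and at 6 h they were 48, 46.15, 45.22 and 38.13 CPM. By gene, all 4 of the 2 h libraries exceeded all 0 and 1 h libraries in 78 of the 80 genes, against 17.8% of the 9266 genes at 5 CPM, a separation that the rule itself favours.

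**Figure D1:**
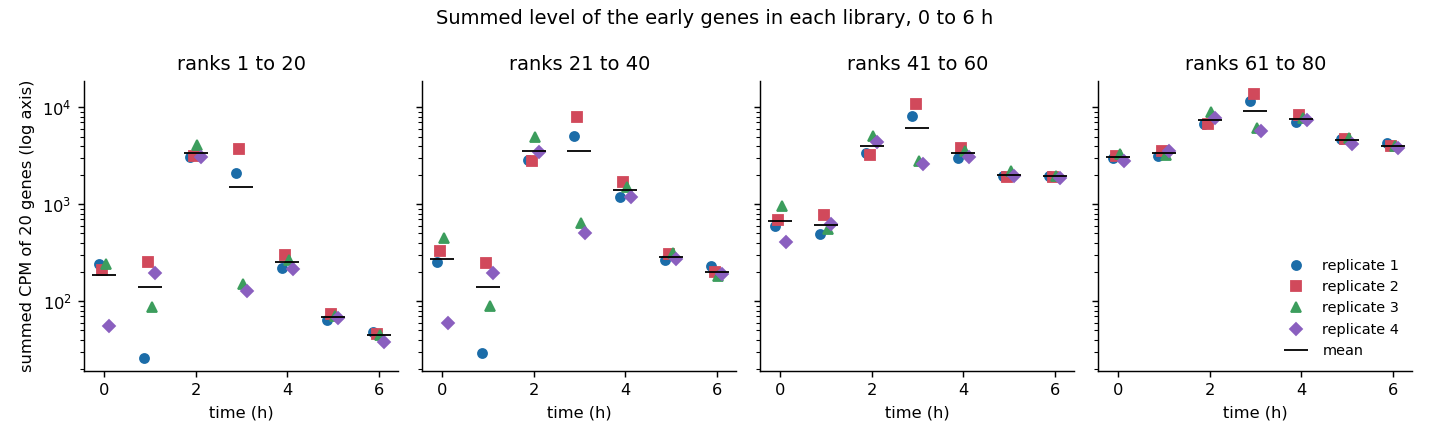
Summed CPM of the genes of each rank group (ranks 1 to 20, 21 to 40, 41 to 60 and 61 to 80) in every library from 0 to 6 h, on a log axis, 1 point per library and a bar for the mean. Ranks 1 to 20 sit between 3093.4 and 4078.9 at 2 h and between 38.13 and 48 at 6 h, while at 3 h libraries 1 and 2 lie far above libraries 3 and 4 in every rank group.

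Of the 80 genes, 41 had their highest mean at 2 h and 39 at 3 h. All of ranks 1 to 20 peaked at 2 h, as did 11 of ranks 21 to 40, 3 of ranks 41 to 60 and 7 of ranks 61 to 80. When the 3 h mean was taken from libraries 1 and 2 alone, 23 genes peaked at 2 h, 54 at 3 h and *twi*, *MED11* and *CtsF* at 4 h, so that the time of the peak rested on which 3 h libraries were used.

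The largest ratio belonged to *scw* (2L:19699379-19700968, minus strand, BDGP6), which encodes Screw, a BMP ligand of the dorsal side. Its 2 h libraries held 194.4, 207.0, 119.4 and 187.6 CPM. Its 0 h libraries held 14, 3.94, 7.69 and 1.56 CPM, and its 1 h libraries 1.72, 17.4, 2.91 and 7.81 CPM. No younger library came near the lowest 2 h library. Behind it came *CG13000*, *srw*, *nullo*, *CG43184*, *CG18269*, *Elba3*, *CG15382*, *tsg* and *CG13711*, with ratios of 19.3 to 16.7. *srw* (3L:4282956-4283478) and *tsg* (X:11988062-11988948) both encode Twisted gastrulation-type proteins that bind BMP ligands.

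Per kilobase of exon, the order was another one. On the RPKM scale, the CPM divided by the exon length in kilobases, *kuk* had the highest level at 2 h, 826.2 ± 168.0 (SD, n = 4). It was followed by *bard* at 549.8 ± 137.5, *halo* at 528.3 ± 199.8, *CG43184* at 466.6 ± 104.2, *SNCF* at 452.0 ± 161.8 and *slam* at 449.8 ± 104.6 RPKM. *dunk*, *Elba2*, *bnk*, *CG34214*, *Elba3* and *Elba1* followed with 411.3 to 341.8 RPKM. From *bard* to *slam*, each gene differed from the next in this order by less than their SDs. The SDs of all genes come from the same 4 libraries, and the order was not tested.

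Members from the gene lists are described by their known function. For cellularization, 4 of the 5 genes on the list used were members: *nullo* and *bnk*, which act on the actin network at the base of the forming cells, *slam*, which is needed for the membrane to grow in, and *dunk*. The fifth, *Sry-alpha*, had means of at most 0.0463 CPM at all time points, under the floor of detection. Its course can thus not be told from these counts, and the reason for the low counts was not tested. *nullo* (X:7049476-7050321) had 98.6, 98.7, 114.9 and 84.3 CPM at 2 h and 16.2, 23.3, 0.169 and 0.368 CPM at 3 h. It was at its highest at 2 h in all 4 libraries, and at 3 h it was near the floor in libraries 3 and 4. *bnk* (3R:31193362-31194389) had 327.2, 336.3, 596.4 and 391.1 CPM at 2 h and 1.8, 1.92, 2.55 and 2.3 CPM at 4 h. All 4 libraries of 4 h were thus more than 100-fold under the lowest 2 h library. *slam* (2L:6372388-6377284) differed in having a maternal level, 225.9 to 437.3 CPM at 0 h and 289.7 to 418.5 CPM at 1 h. It reached 1543.0, 1469.1, 2391.5 and 2003.9 CPM at 2 h and was back at 51.2 to 77.5 CPM at 4 h, under its level in the egg.

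For dorsal-ventral patterning, 8 of 25 listed genes were members. Beside *scw* and *tsg* these were *tld*, a protease that frees BMP from its inhibitor, *sog*, that inhibitor, *zen* and *zen2*, dorsal homeobox genes, *twi*, the mesodermal bHLH factor, and *vnd*, a homeobox gene of the ventral nerve cord. *zen* kept another time than *twi* and *sog*. *zen* (3R:6752864-6754194) had 100.1, 99.2, 158.1 and 127.2 CPM at 2 h and 16.1 to 22.8 CPM at 4 h. *twi* (2R:22985374-23048325) had 42.4, 42, 90.1 and 54.6 CPM at 2 h and 151.3, 169.0, 178.8 and 188.2 CPM at 4 h. *sog* (X:15603283-15633434) had 20.6, 16.9, 23.7 and 33.7 CPM at 2 h and 164.4 to 211.3 CPM at 4 h. For *twi* and *sog* every 4 h library was above every 2 h library, while for *zen* every one was below. Of the other 17 genes of the list, 10 peaked at 5 h or later and 7 at 4 h, with and without 3 h libraries 3 and 4.

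Genes of chromatin boundaries were on no list and were grouped after the members were known. All 3 subunits of the ELBA complex, which binds insulators of the early embryo, were members, and so was *insv*, which encodes a related BEN-domain protein. *Elba1* (2L:4683052-4684461) and *Elba3* (2L:4687511-4688956) had 16 and 19.4 CPM at 1 h and 462.1 ± 108.7 and 541.7 ± 104.2 CPM (SD, n = 4) at 2 h. *Elba2* (2L:2577687-2579179) had 157.8 to 249.6 CPM at 1 h and *insv* (2L:2575280-2576997) 128.1 to 186.5 CPM. *Elba1* and *Elba3* stayed at or under 46.6 CPM in every library of 0 and 1 h, while *Elba2* and *insv* were at 128.1 CPM or above in all of them.

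Of 4 listed genes for the brake on the nuclear cycles and for vesicle transport, 3 were members. *Z600* (3L:15509061-15509513), which encodes an inhibitor of mitotic cyclin-dependent kinase, had 90.3, 83.7, 215.2 and 133.6 CPM at 2 h and 361.8, 578.2, 11.3 and 9.93 CPM at 3 h. *trbl* (3L:20396288-20401609), which promotes the loss of the mitotic phosphatase String, had 88.5 to 171.8 CPM at 2 h, against 41.8 to 64.9 CPM at 0 and 1 h. *halo* (2L:1517533-1518148), which directs the transport of lipid droplets, had 238.6 to 501.0 CPM at 2 h and 621.8, 1057.9, 62.3 and 67 CPM at 3 h. In *Z600* and *halo* 3 h libraries 1 and 2 were the highest of the whole series, and libraries 3 and 4 were below every 2 h library. The other listed gene, *stg*, which encodes String, is no member. Its mean was already 611.7 and 590.0 CPM at 0 and 1 h, fell to 225.1 CPM at 2 h and was highest at 10 h with 618.8 CPM.

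The segmentation lists held 5 members. The gap genes *tll*, *gt*, *kni* and *Kr* were members, 4 of 10 listed, and of 9 pair-rule genes only *hry* was. Of the other 8, 7 peaked at 4 h, a number that became 4 without 3 h libraries 3 and 4, when 3 peaked at 2 or 3 h. *Kr* (2R:25226611-25231394) had 73.6, 77, 136.0 and 104.5 CPM at 2 h and 305.0, 305.9, 257.5 and 256.6 CPM at 3 h. *D*, a SOX factor on none of the lists, had 92.5 to 176.7 CPM at 2 h and 199.0 to 333.7 CPM at 3 h. Of 6 genes that count X chromosomes or act early in sex determination, *sc* and *upd1* were members. *sc* (X:396060-397497), a proneural bHLH gene, had 69.9 to 84.3 CPM at 2 h and 12.2 to 25.8 CPM at 3 h, a drop of all 3 h libraries. No member came from the lists of Notch and Bearded family genes (0 of 10), gastrulation genes (0 of 5) and maternal mRNAs (0 of 10).

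**Figure D2:**
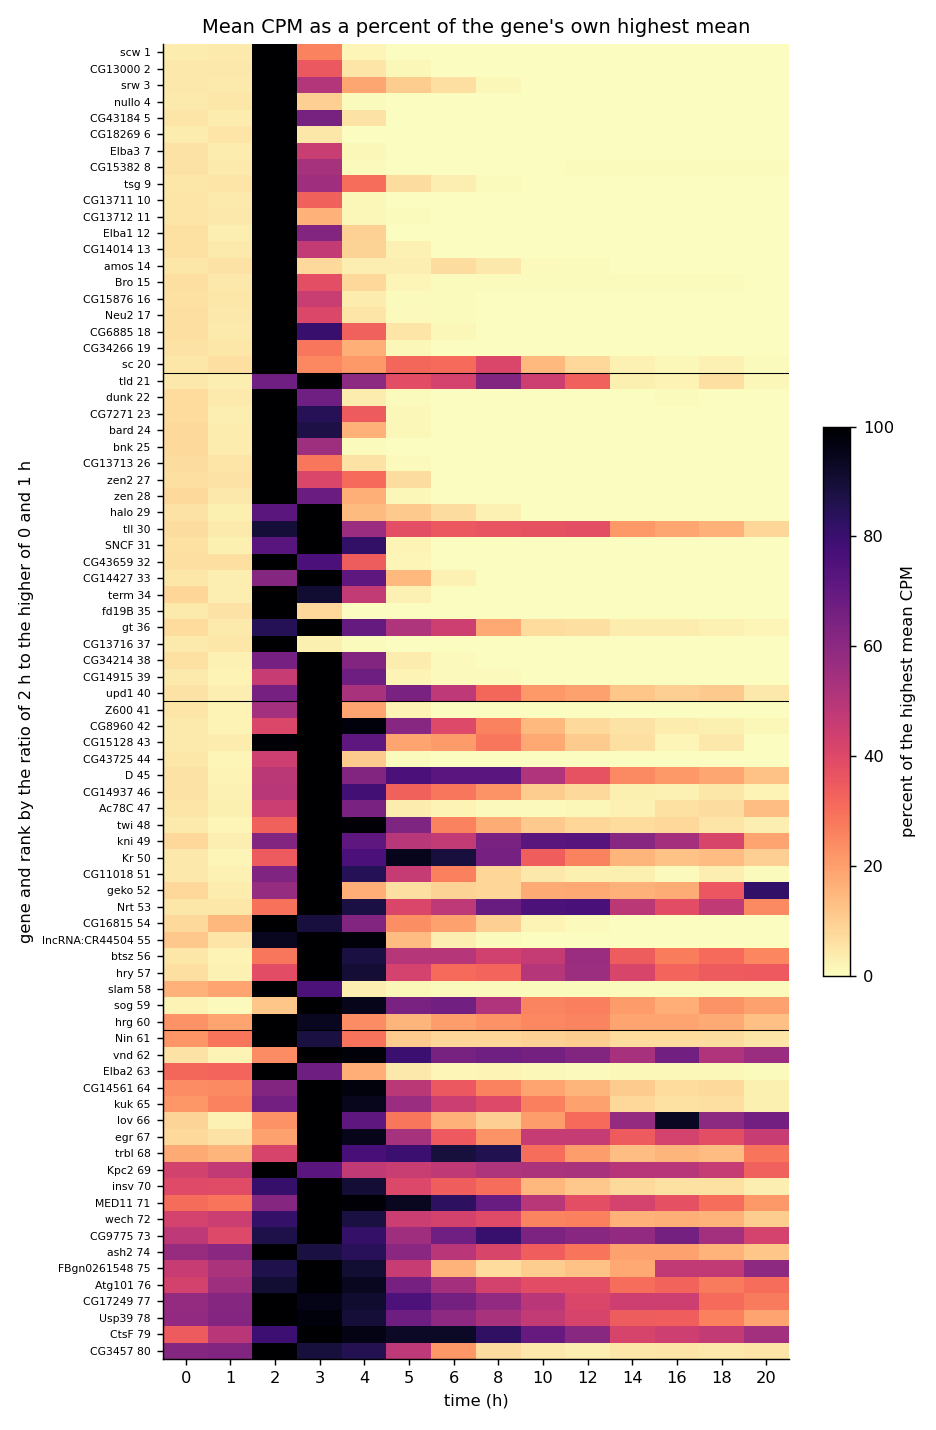
Mean CPM of each of the 80 genes (vertical axis, in rank order) at the 14 time points (horizontal axis, hours), as a percentage of the gene's own highest mean, shown by colour. Ranks 1 to 20 are at a median of 5.2% of their peak at 4 h, and ranks 61 to 80 at 89.8% (4.83% and 76.3% without 3 h libraries 3 and 4).

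The split at 3 h ran through nearly the whole set. The sums over all 80 genes were 26830.6, 36182.5, 9665.0 and 8918.2 CPM in 3 h libraries 1 to 4. For ranks 1 to 20 they were 2108.6, 3681.9, 152.1 and 126.8 CPM. Libraries 3 and 4 were thus below the 4 h libraries, which held 217.2 to 299.0 CPM, while library 2 was above 3 of the 4 libraries of 2 h. Both libraries 3 and 4 lay under both libraries 1 and 2 in 71 of the 80 genes, against 29.9% of the 6719 genes with 5 CPM at 3 h. In 55 genes they lay under the lowest 4 h library too (12.5% of those genes). The ratio of the mean of libraries 1 and 2 to that of libraries 3 and 4 had a median of 29 in ranks 1 to 20, 12.2 in ranks 21 to 40, 2.98 in ranks 41 to 60 and 1.69 in ranks 61 to 80, against 0.854 in all genes. The rule used the means of these libraries and took genes with a peak at 2 or 3 h. The counts and ratios therefore describe the members, and the shares of all genes are no matched comparison. What sets these libraries apart was not tested.

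Single genes showed how far the split went. *Elba3* had 354.4, 627.9, 0.506 and 0.797 CPM in the 3 h libraries, and 9.47, 8.62, 8.13 and 5.63 CPM at 4 h. *slam* had 2130.8, 3417.7, 20.7 and 16.4 CPM at 3 h. In both genes libraries 3 and 4 were lower than every 4 h library, and library 2 was as high as or higher than most 2 h libraries. The 9 genes without the split were *sc*, *zen2*, *CG8960*, *twi*, *vnd*, *MED11*, *CG17249*, *CtsF* and *CG3457*. *twi* had 170.6, 167.4, 198.8 and 156.1 CPM at 3 h, with libraries 3 and 4 at both ends of the range. The 1 h libraries split as well: libraries 2 and 4 were above libraries 1 and 3 in 67 of the 80 genes, against 20% of the 9266 genes. The rule used the 1 h levels too, so that this count is a description.

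**Figure D3:**
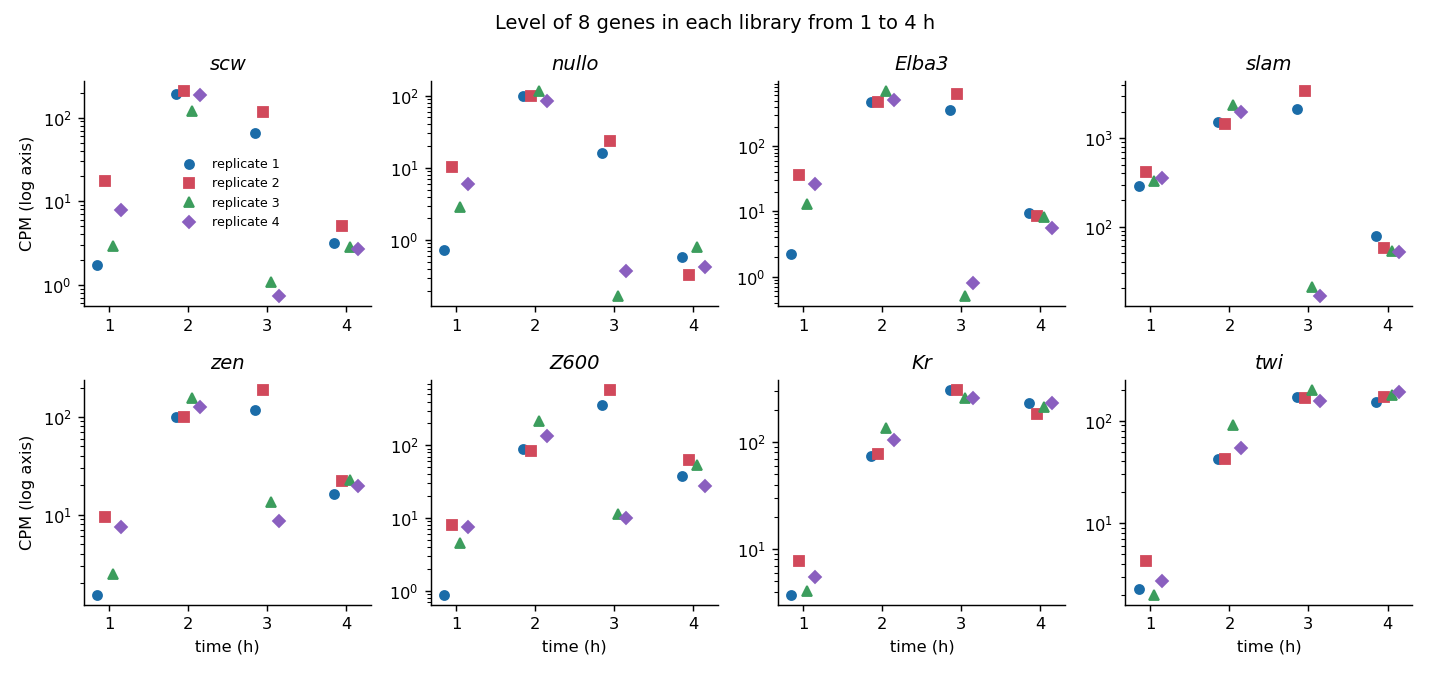
CPM of *scw*, *nullo*, *Elba3*, *slam*, *zen*, *Z600*, *Kr* and *twi* in each library at 1, 2, 3 and 4 h, on a log axis, 1 point per library. In *slam*, 3 h libraries 1 and 2 reach 2130.8 and 3417.7 while libraries 3 and 4 are at 20.7 and 16.4, and in *twi* the 4 libraries of 3 h lie together between 156.1 and 198.8.

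The rule used the levels at 2 and 3 h, so that the calls from 2 to 3 h and from 3 to 4 h describe the members and nothing is read from their number. A gene was called at a Benjamini-Hochberg adjusted p under 0.05 by edgeR's quasi-likelihood test and at least a 2-fold change. From 2 to 3 h, 11 members were called rising (23.2% of the 11065 genes tested) and 13 falling (20.1%), and without 3 h libraries 3 and 4 these were 26 and 7. The falling members were 23 without replicate 2 and 7 without replicate 3. From 3 to 4 h, no member was called rising (0.0362% of all genes; 0 at an unadjusted p under 0.05 and 0 by DESeq2) and 28 were called falling (1.77%). The 28 became 0 without replicate 1, 0 without replicate 2, 0 when only the 8 libraries of 3 and 4 h were fitted, and 51 without 3 h libraries 3 and 4. A few genes were past their peak in all 3 h libraries. *CG18269* had 99 to 117.8 CPM at 2 h and 7.55, 13.2, 0.169 and 0 CPM at 3 h. *amos*, a proneural bHLH gene, had 65.6 to 88.4 CPM at 2 h and 9.03, 12.9, 0.899 and 1.29 CPM at 3 h. *fd19B*, a forkhead gene, had 13.2 to 14.6 CPM at 2 h and 2.02, 2.45, 0 and 0 CPM at 3 h, and it was at 0 in all 4 h libraries, at least 23.7-fold lower than at 3 h (71 counts against a floor of 3 over the 4 libraries). *CG13716* had 8.32 to 12.5 CPM at 2 h and 0.238, 1.06, 0 and 0 CPM at 3 h. In these 4 genes no 3 h library reached the lowest 2 h library. The other largest changes called were rises of *sog*, *egr* and *lov* from 2 to 3 h and falls of *bnk* and *CG15382* from 3 to 4 h. *egr*, which encodes the fly TNF ligand, went from 14.8 to 26.9 CPM to 137.1, 136.9, 71.3 and 64.4 CPM, and *lov* from 10.7 to 28.7 CPM to 110.0, 131.6, 42.5 and 34.2 CPM. *CG15382* went from 245.4, 439.1, 0.506 and 0.858 CPM at 3 h to 2.72 to 5.23 CPM at 4 h, so that its fall was seen from libraries 1 and 2 alone.

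All 80 genes passed the filter on low counts, which 11065 genes did. The later times did not enter the ratio of the rule, but the rule held their means below the level at 2 or 3 h. From 4 to 6 h, 50 of the 80 genes fell (edgeR's quasi-likelihood test, Benjamini-Hochberg adjusted p under 0.05 and at least 2-fold), against 6.98% of all genes tested. None rose, against 10.1% of all genes (0 at an unadjusted p under 0.05, and 0 by DESeq2). At 4 h the members stood at a median of 50.2% of their peak, and ranks 61 to 80 at 89.8%. Many of them thus had no room under the rule for a 2-fold rise, and nothing is read from the absence of rises. A choice by an early peak also favours later falls, so that all genes are no matched comparison, here and at the later steps. The median log2 fold change was -1.95 in the members and 0.15 in all genes. Falls numbered 15, 13, 12 and 10 in the rank groups from the top. Every 6 h library was under every 4 h library in 67 of the 80 genes, and in 24% of the 9266 genes at 5 CPM. Between 45 and 49 fell when any 1 replicate was left out.

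The steepest falls of this interval were in genes without a well known role. *SNCF* (3L:13378583-13379190) had 253.7, 412.8, 332.5 and 237.1 CPM at 4 h and 1.08, 0.565, 0.521 and 0.76 CPM at 6 h. That was 20236 counts against 49, a log2 fold change of -8.77 ± 0.77 (SE; edgeR's quasi-likelihood test, Benjamini-Hochberg adjusted p = 2.2e-12). The mean of *SNCF* was 274.8 CPM at 2 h, 309.0 CPM at 4 h and already 8.81 CPM at 5 h. *CG43659* had 5.21 to 9.41 CPM at 4 h and 1 count in all at 6 h against 485, a ratio of 480.6 (95% exact interval of the counts 85.9 to 19022.8). *CG34266* had 445 counts at 4 h and 1 at 6 h, a ratio of 441.0 (78.7 to 17457.1). *term*, which encodes a zinc finger protein, and its neighbour *CG7271* fell by 8.30 and 7.80 on the log2 scale. All libraries of 6 h were below 1 CPM in these 5 genes except for *SNCF* replicate 1.

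The counts by gene group are given side by side, and differences between groups were not tested. Among cellularization genes, all 4 members fell from 4 to 6 h: *dunk* by 3.73, *bnk* by 4.14, *nullo* by 4.70 and *slam* by 2.62 on the log2 scale. Among dorsal-ventral members, 5 of 8 fell, which were *zen2* (-7.06), *zen* (-6.10), *scw* (-6.10), *tsg* (-3.20) and *twi* (-2.01). The other 3 were not called. Their log2 fold changes were -0.58 ± 0.47 for *tld*, -0.59 ± 0.36 for *sog* and -0.67 ± 0.27 for *vnd* (SE). Of the 17 genes of that list that are no members, 1 fell. All 4 insulator genes fell, *Elba1* by 6.73, *Elba3* by 5.87, *Elba2* by 3.36 and *insv* by 1.49. The 4 gap gene members were not called. Their log2 fold changes were -0.75 for *tll*, -0.73 for *gt*, -0.69 for *kni* and 0.15 for *Kr*. The pair-rule member *hry* fell by 1.62. *Kr* had 228.6, 183.5, 210.4 and 230.3 CPM at 4 h and 240.8, 277.4, 235.6 and 239.8 CPM at 6 h, with every 6 h library above every 4 h library but by less than the threshold. Of the cycle brakes *Z600* fell by 6.10, and *trbl* had 215.8 to 230.4 CPM at 4 h and 239.7 to 263.1 CPM at 6 h.

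From 6 to 10 h, 29 members fell (8.35% of all genes) and none rose (8.53%; 0 at an unadjusted p under 0.05, 0 by DESeq2). The median log2 fold change was -1.31 over the 80 genes, against -0.15 in all genes. Over the 72 members above the floor at either time it was -1.34 as fitted and -1.28 with genes at 0 set to their bound. *CG14427* fell from 168 counts to 1, a ratio of 165.2 (29.3 to 6564.1). *CG14014* fell from 84 counts to 2, a ratio of 41.3 (11.1 to 346.7), a call that was lost without replicate 1 (edgeR's quasi-likelihood test, adjusted p = 0.0932). *lncRNA:CR44504*, which overlaps the miRNA genes *mir-3*, *mir-4*, *mir-5*, *mir-286*, *mir-309* and 3 copies of *mir-6*, had 18 counts at 6 h and 0 at 10 h, at least 5.9-fold lower. Its call was lost without replicate 1 and without replicate 2, where edgeR's quasi-likelihood test gave an adjusted p of 0.0662 and 0.0572. These 3 genes had few counts left at 6 h, whereas *halo* and *gt* fell from higher levels. *halo* went from 28.6 to 34.6 CPM to 0.924 to 1.12 CPM, a log2 fold change of -5.04 ± 0.74 (SE; edgeR's quasi-likelihood test, Benjamini-Hochberg adjusted p = 4.24e-07). *gt* fell by 2.75, *trbl* by 1.73, *Kr* by 1.56 and *sog* by 1.55 on the log2 scale.

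The share of the own peak that was left at 10 h differed between members. At 10 h, 44 of the 80 genes stood under 5% of their own peak, 14 between 5 and 25% and 22 above 25%. Without 3 h libraries 3 and 4 these were 44, 19 and 17, with *tll*, *sog*, *trbl*, *kuk* and *wech* no longer above 25%. With all libraries, the group above 25% held *tld*, *tll*, *kni*, *Kr*, *vnd*, *sog*, *hry* and *trbl* from the lists. Among its other members were *D*, *Nrt*, *btsz*, *egr*, *kuk* and *wech*. The cellularization genes and *scw*, *tsg*, *zen*, *zen2*, *Z600* and *halo* were all under 5% in both cases. *Nrt* (3L:16766072-16777465), which encodes the adhesion protein Neurotactin, stood at 75.4% of its peak, with 822.0 to 931.0 CPM at 10 h against 788.9 to 1696.9 CPM at 3 h. This was the largest share of the 80 genes with all libraries, while without 3 h libraries 3 and 4 it was 57.2% and *CtsF* and *vnd* stood higher, at 72.1 and 65.9%.

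From 10 to 14 h, 15 members fell (8.59% of all genes) and 2 rose (24.4%), *Ac78C* and *lov*. Without 3 h libraries 3 and 4 in the fit, 23 fell. A single member rose without replicate 1, 2 or 3, with no filter on low counts and with a replicate block. The median log2 fold change was -0.49 in the members and 0.08 in all genes, with 20 members at or under the floor at both times. *tld* (3R:24749731-24753510) was still well expressed at 10 h and then fell, from 64.8, 57.1, 64.3 and 62 CPM to 6.74, 3.15, 4.78 and 2.72 CPM. This was a log2 fold change of -3.87 ± 0.54 (SE; edgeR's quasi-likelihood test, Benjamini-Hochberg adjusted p = 7.48e-08), with no overlap between the times. *sc* fell by 2.62 and *kuk* by 1.77 on the log2 scale. *amos* had 58 counts at 10 h and 0 at 14 h, at least 20.5-fold lower, and *CG16815* 24 and 0, at least 8.49-fold lower. *CG14915* had 55 and 1, a ratio of 58.4 (10 to 2346.9).

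A small number of members had a further maximum late. *Ac78C* (3L:21136447-21171930), which encodes an adenylyl cyclase, fell to 2.65 CPM at 6 h and stood at 20, 14.1, 21.4 and 18.4 CPM at 20 h. From 14 to 20 h it rose by a log2 fold change of 2.57 ± 0.57 (SE; edgeR's quasi-likelihood test, Benjamini-Hochberg adjusted p = 0.000137). Its 4 libraries of 14 h, at 2.45 to 4.43 CPM, all lay below. The rise of *Ac78C* from 10 to 14 h, 1.46 ± 0.63, was lost without replicate 1, 2 or 3, with no filter on low counts and with a replicate block, where edgeR's quasi-likelihood test gave an adjusted p of 0.137, 0.128, 0.126, 0.0616 and 0.0525. *geko* (3L:18139402-18145418) had 9.29 to 13.7 CPM at 14 h and 85.9, 51.3, 44.3 and 56.1 CPM at 20 h, a log2 fold change of 2.45 ± 0.61. *lov* (2R:25085780-25139627) rose from 14.7 to 18.7 CPM at 10 h to 55.5, 30, 52.5 and 46.3 CPM at 14 h, a log2 fold change of 1.44 ± 0.36, and was highest late at 16 h with a mean of 74.5 CPM, against 79.6 CPM at 3 h, or 120.8 CPM in 3 h libraries 1 and 2. The gene FBgn0261548, for which the annotation used gives no symbol, had 7.3 to 16.7 CPM at 14 h and 47, 56.1, 24.7 and 24.4 CPM at 20 h, a log2 fold change of 1.78 ± 0.30. In *Ac78C*, *geko*, *lov* and FBgn0261548 the later libraries all lay above the earlier ones.

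From 14 to 20 h, 5 members rose (22.8% of all genes) and 11 fell (10.6%). Besides *Ac78C*, *geko* and FBgn0261548 the risers were *trbl* and *amos*. *trbl* had 28.3 to 44.1 CPM at 14 h and 41.8, 37.6, 135.1 and 114.1 CPM at 20 h, a log2 fold change of 1.31 ± 0.28 that came from libraries 3 and 4, while libraries 1 and 2 overlapped the 14 h range. The same libraries 3 and 4 also held more late embryo mRNA, 29125.2 and 26206.6 summed CPM against 19650.3 and 14383.4 in libraries 1 and 2; the part of this in the *trbl* value was not tested. Without replicate 3 the risers numbered 3 and the fallers 6, and without 3 h libraries 3 and 4 the fallers were 17. *amos* had 0 counts at 14 h and 11 at 20 h, at least 3.47-fold higher, and its call was lost without replicate 2, 3 or 4 (edgeR's quasi-likelihood test, adjusted p = 0.0513, 0.0713 and 0.256). The largest falls were those of *CG15128*, from 26 counts to 2, *CG11018*, from 17 to 4, and *CG8960*, at -1.84 ± 0.32. The *CG11018* call was lost without replicate 1, 3 or 4 (edgeR's quasi-likelihood test, adjusted p = 0.144, 0.0503 and 0.0619). The median log2 fold change was -0.19 over the 80 genes, against -0.12 in all genes. Over the 60 members above the floor at either time it was -0.46, both as fitted and with genes at 0 set to their bound. At 20 h, 41 of the 80 genes were under 1 CPM.

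**Figure D4:**
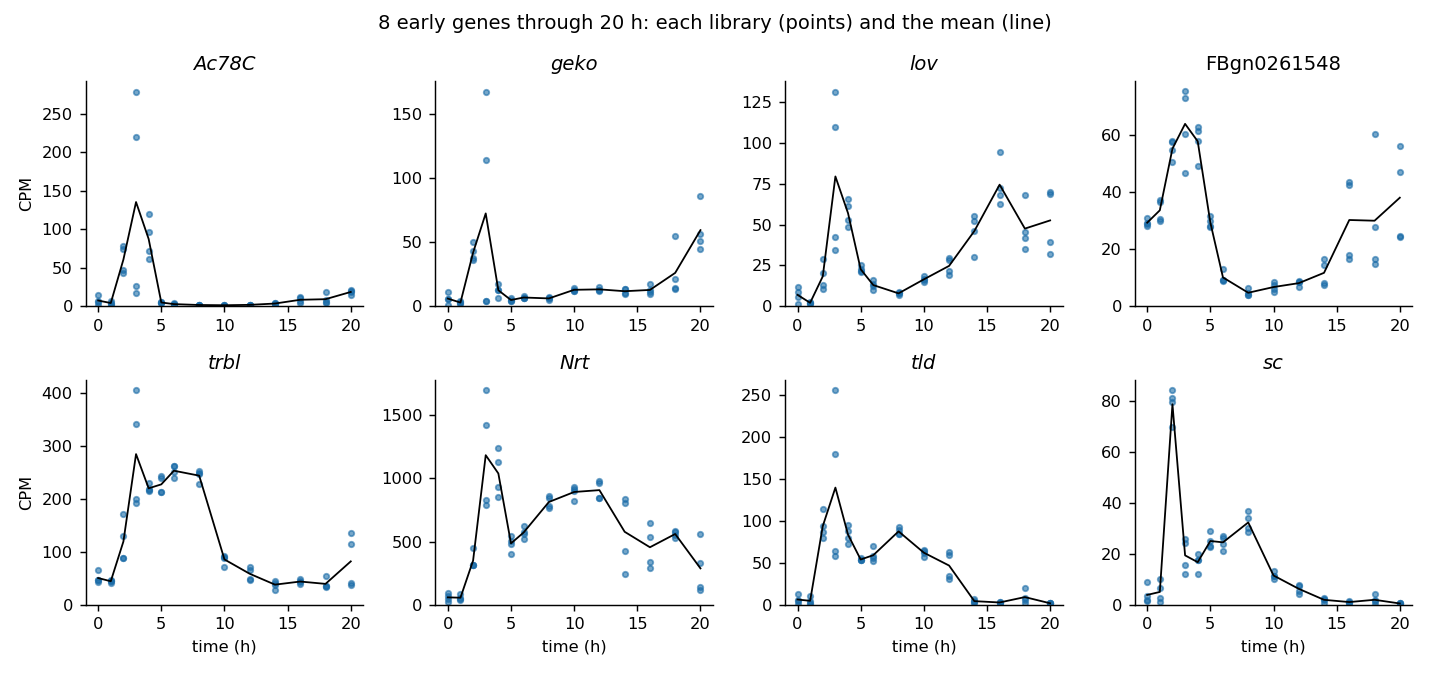
CPM of *Ac78C*, *geko*, *lov*, FBgn0261548, *trbl*, *Nrt*, *tld* and *sc* in each library at the 14 time points, on linear axes that start at 0, with points for libraries and lines for means. *geko* is at 4.78 at 5 h and at 59.4 at 20 h, and *tld* drops from 62 at 10 h to 4.35 at 14 h.

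The members shared features of gene structure that the rule did not use. In the Ensembl annotation, 39 of the 79 annotated members (49.4%) had no intron in any transcript, against 9.03% of the 9077 annotated genes at 5 CPM and 8.74% of the other genes that met the conditions on the peak and the level. The share was higher in ranks 1 to 40 than below, with 18 of 20 in ranks 1 to 20, 12 of 20 in ranks 21 to 40, 4 of 20 in ranks 41 to 60 and 5 of 19 in ranks 61 to 80. The median gene length was 866.5, 1023, 3272 and 3252 bases in the same order, against 2970 bases. *Elba1* and *Neu2* were the members of ranks 1 to 20 with an intron. The shortest gene was *CG43184* with 325 bases and the longest *btsz*, which encodes a synaptotagmin-like protein, with 71397 bases. These shares are a description, with no test.

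**Figure D5:**
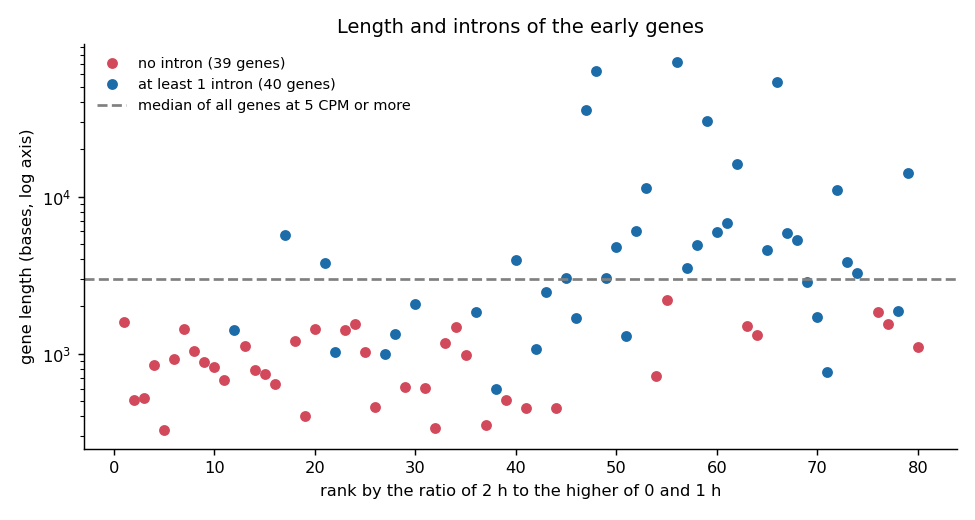
Gene length in bases (log axis) against rank for the 79 annotated members, with separate symbols for the 39 genes without an intron and the 40 with at least 1, and a dashed line at 2970 bases, the median of genes at 5 CPM. Ranks 1 to 20 lie mostly under the line and hold 18 genes without an intron.

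By chromosome arm, 3L held 26 of the annotated members (32.9%, against 20.1% of genes at 5 CPM). The shares were 21.5% against 17.6% for 2L, 16.5% against 16.5% for X, 15.2% against 19.7% for 2R and 13.9% against 25% for 3R, and chromosome 4 held none against 0.925%. These shares were not tested. Of the 79 annotated members, 27 (34.2%) lay within 20 kb of another member, in 16 pairs, and of the other 8998 annotated genes at 5 CPM, 3.17% lay within 20 kb of a member. The closest pair on the same strand was *CG6885* (3L:18744488-18745699, rank 18) and *MED11* (3L:18745856-18746623, rank 71), a Mediator subunit gene, 156 bases apart. The course of these neighbours differed, since *CG6885* had 48.5 to 79.2 CPM at 4 h and 1.69 to 2.85 CPM at 6 h, and *MED11* 60.9 to 73.3 and 54.3 to 62 CPM. *CG17249* (3L:1645931-1647464) and *Bro* (3L:1647869-1648612), which encodes the partner of Runt, were divergent neighbours at ranks 77 and 15. Other divergent neighbours included *insv* and *Elba2*, 689 bases apart, *Elba1* and *Elba3*, 3049 bases apart, and *CG14014* and *CG18269*, 1002 bases apart on 2L between 5549709 and 5552756. The last pair, at ranks 13 and 6, peaked together at 2 h but differed at 4 h, with 26.1 to 38.1 CPM for *CG14014* and 0.133 to 0.406 CPM for *CG18269*.

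Larger groups were found on 2R and 3L. On 2R between 19659645 and 19688078 lay *lncRNA:CR44504*, *CG11018*, *hrg*, a poly(A) polymerase gene, *Kpc2* and *CG15128*, at ranks 55, 51, 60, 69 and 43. The levels of this group at 2 h ranged from 5.56 CPM for *CG11018* to 750.0 CPM for *hrg*. On 3L between 4677832 and 4709890 lay *CG34266*, *CG15876*, *CG13713* and *CG13712*, at ranks 19, 16, 26 and 11. The last 3 lie inside *RhoGEF64C*, as does the member *CG13711*, which is not of this group. The remaining neighbours were *CG7271* with *term* on 3L, *zen2* with *zen* on 3R, *CG14915* with *CG43725* on 2L and *CG14427* with *nullo* on X. In all, 33 members (41.8%, against 49.7% of the other genes at 5 CPM) overlapped another gene and 17 (21.5%, against 5.97%) lay within a protein-coding gene, *scw*, *CG13000* and *nullo* among them. For those on the same strand as the host, such as *CG13711*, *CG13713*, *CG13716* and *dunk*, reads of host and member may not be fully separated.

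The genes that take the place of some members depended on the 3 h libraries. With 3 h libraries 3 and 4 left out, the rule took 67 of the same genes, 59 of ranks 1 to 60 and 8 of ranks 61 to 80. The 13 genes that entered included the segmentation genes *hkb*, *ftz*, *eve*, *odd* and *oc*. *ftz* had 52.6 CPM at 2 h, 138.0 CPM in 3 h libraries 1 and 2 and 132.3 CPM at 4 h, and *eve* had 21.6, 51.6 and 35.1 CPM. The others were *Mabi*, *Mdr49*, *CG43085*, *croc*, *Ptr*, *msl-2*, *CG12194* and *Pka-C3*. In each of the 13, the 3 h mean was the highest of the 14 time points only when it was taken from libraries 1 and 2.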

How the data were processed

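Whole-embryo RNA was sequenced in 56 libraries, 4 at each of 14 ages. The values used are whole-number counts of reads per gene, deposited 1 file per library. Per the study's methods and the submitters' processing notes, the authors made these counts from 51-cycle single reads of a stranded mRNA kit with bcl2fastq 1.8.4, STAR 2.4.0h, SAMtools 1.2 and HTSeq 0.6.1p1 (union mode) on BDGP6 with Ensembl release 79. Reads that matched several genes were left out, and the strand setting of the counting is not given in the sources used here, so that reads of overlapping genes may not be separated. Rows that name no gene were left out of totals: 1.28 to 1.82% ambiguous, 0.425 to 1.9% in no feature and 1.71 to 7.47% not unique. Library totals were 13422473 to 22536043 counts.

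CPM is the count divided by the sum over gene rows; RPKM used exon lengths of Ensembl release 115, which held 17252 of the 17558 gene IDs and gave all positions and gene structures. R 4.3.3 with edgeR 4.0.16 gave the tests of change (filterByExpr, TMM factors, 1 mean per time point over all 56 libraries, quasi-likelihood test, Benjamini-Hochberg adjustment over 11065 genes). A gene was called at an adjusted p under 0.05 and at least 2-fold. Against a group at 0, a fold is a lower bound set with 3 counts over the 4 libraries, and intervals of count ratios are 95% exact (Clopper-Pearson); both cover counting error only. On simulated counts with 200 of 10641 genes changed 4-fold from 4 to 6 h, 184 (92%) were found and 0 others. DESeq2 1.42.0, its size factors, no filter, the 8 libraries of a contrast alone, a replicate block and each replicate left out were tried as alternatives. Library size scaling and values without 3 h libraries 3 and 4 were added after the data were seen. Tables and figures were made with Python 3.11.15, numpy 2.4.6, pandas 2.3.3 and matplotlib 3.10.9.

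The members, the gene lists and the tests were chosen with earlier results of these data known. A member was named when it was among the 12 highest in RPKM at 2 h, the 10 largest ratios, the gene lists, the 3 largest changes called in each direction of a comparison, the 3 last inside the rule, or had another member as its neighbour. *Neu2*, *btsz*, *Nrt*, *D*, *egr*, *wech*, *CG13711*, *CG13716* and the late risers FBgn0261548 and *trbl* were named also after their values were seen, as were the 13 genes that entered without 3 h libraries 3 and 4.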

Additional observations from a re-analysis of the deposited data

Results flagged for a closer look

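In the 20 groups of 4 libraries that were checked for a library far from the others (the summed CPM of each rank group at each time from 0 to 4 h), 2 held one; chance flags about 1 in 20 such groups. At 0 h, the sum over ranks 1 to 20 was 55.05 CPM in replicate 4 and 211 to 242.3 CPM in the other libraries, a gap of 0.833 of the whole range, just past Dixon's critical value. Replicate 4 was the lowest 0 h library in 65 of the 80 genes, while it was so in 36.2% of the 9266 genes at 5 CPM. At 2 h, the sum over ranks 1 to 20 was 4078.9 CPM in replicate 3 and 3093.4 to 3164.1 CPM in the others, a gap of 0.928 of the range. Replicate 3 was the highest 2 h library in 62 of the 80 genes, against 35.2% of genes at 5 CPM. The rule used the levels at 0 and 2 h, so that both counts describe the members only. *scw*, *srw* and *tsg* went the other way or lay within the range, with 119.4, 60.3 and 44.9 CPM in replicate 3. The split of the 3 h libraries into 1 and 2 against 3 and 4 was not reached by this check, since the outlying values come as a pair.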

How the results depend on the processing

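The falls from 4 to 6 h (50 members) and from 6 to 10 h (29) stayed within 1.5 times their number under every alternative, with 45 to 49 and 21 to 27 when 1 replicate was left out. Without 3 h libraries 3 and 4, 26 members were called rising and 7 falling from 2 to 3 h, 51 falling from 3 to 4 h, 23 falling from 10 to 14 h and 17 falling from 14 to 20 h. With only the 8 libraries of a contrast in the fit, 0 were called falling from 3 to 4 h and 1, *amos*, rising from 4 to 6 h. With 1 replicate left out in turn, falling members numbered 7 to 23 from 2 to 3 h, 0 to 32 from 3 to 4 h and 6 to 13 from 14 to 20 h, and rising ones 1 to 3 from 10 to 14 h and 3 to 5 from 14 to 20 h. With no filter on low counts, 1 member rose from 10 to 14 h. Summed over the 80 genes, TMM-scaled CPM gave 23357.0 at 2 h and 14012.6 at 4 h in place of 18382.3 and 12636.4. The cause of these differences was not tested.

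The replicate numbers did not pair the libraries: same-numbered libraries of different times correlated in their deviations at a mean of 0.0058 and others at -0.0019. With a replicate block, 18 members fell from 2 to 3 h, 26 from 3 to 4 h, 50 from 4 to 6 h and 29 from 6 to 10 h, and 1 rose from 10 to 14 h. Of 279 values of the 26 largest changes under alternatives, 256 kept their direction and call, 23 kept the direction and lost the call, and 0 turned.

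Other forms of the rule shared 80 genes (pseudocount of 1 or 0.1), 68 (median, or TMM-scaled CPM), 66 (minimum of 1 CPM), 71 (minimum of 20 CPM), 63 to 72 (1 replicate left out) and 67 (without 3 h libraries 3 and 4) with the 80 used. The search for promoter motifs and its other window were not run, as no promoter sequence was used here. Depth limits the late times, where 20 members had at most 3 counts over 4 libraries at both ends of a contrast, and changes of such genes were not detectable.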
